A study of Mus musculus with 2 samples.

Results

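The proteasome is the barrel-shaped protease that degrades proteins tagged with ubiquitin, and the genes of its subunits and assembly factors were followed here in mouse microglia with and without PARK7/DJ-1. Members were the genes whose symbol begins with Psma to Psmg followed by a digit, without the immunoproteasome subunits Psmb8, Psmb9 and Psmb10, and with at least 20 unique molecular identifiers (UMIs, each 1 captured transcript) over both libraries. Of 47 matching symbols, 45 passed this minimum, out of 9085 genes of 19537 in the matrices that did so. Psma8, with 2 UMIs in KO LPS against 20 in WT LPS, and Psmc3ip, with 3 and 31, lay just inside the minimum. Psmf1, the proteasome inhibitor PI31, lay just outside it with 3 and 12 UMIs, and Psmb11, the thymus-specific beta subunit, had 0 and 1. Psmc3ip carries a proteasome-like symbol but encodes the meiotic recombination factor Hop2, so it was counted among the members and in their total, and kept out of the sums by role.

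The data were 2 Drop-seq single-cell libraries of CD11b+CD45int cells sorted from mouse brain, labelled microglia, 24 h after an injection of LPS, the bacterial lipopolysaccharide that sets off systemic inflammation. The KO LPS library came from PARK7/DJ-1 knock-out mice, which carry a gene-trap allele of Park7 in every cell and were backcrossed to C57BL/6NCrl. The WT LPS library came from PARK7/DJ-1 wild type littermates. Per the study the mice were 3 and 4 months old and each library pooled 2 animals. The study used Xist to assign cells to a female or a male mouse of each genotype. The splits by Xist and Y-linked UMIs below thus also divide the animals. All cells compared here had received LPS and no untreated cells were analysed. With 1 library per genotype no test between genotypes was possible, genotype and library cannot be told apart, and every interval below is a 95% exact interval that covers counting error only. Cells were barcodes with at least 500 UMIs and 100 genes, which left 320 cells with 381305 UMIs in KO LPS and 1427 cells with 1989011 UMIs in WT LPS, at a median of 963.5 and 1065 UMIs per cell, with 0 cell barcodes shared.

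Park7 itself had 1 UMI in KO LPS against 323 in WT LPS. The 11 microglia markers were all detected in both libraries and summed to 35022 CPM (UMIs per 1e6 UMIs of the library's cells) in KO LPS, with 29036 CPM in WT LPS, with Cx3cr1, P2ry12 and Tmem119 among them. Of the 4 choroid plexus markers, 1 was at 0 in each library (Clic6 in KO LPS, Kl in WT LPS), and the list summed to 1883 CPM in KO LPS against 11.1 in WT LPS, nearly all of it from Ttr, at 1862 CPM in KO LPS. The 6 astrocyte markers summed to 370 and 173 CPM and the 4 endothelial markers to 81.3 and 15.1, with Aqp4 at 0 in both libraries. The 6 neutrophil markers were all at 0 in KO LPS and summed to 66.9 CPM in WT LPS, with Camp and Ngp at 0. A list of 28 measured inflammatory genes summed to 876 CPM in KO LPS against 12481 in WT LPS, and 10 of them, Saa3, Lcn2 and Cxcl10 included, had no UMI in KO LPS. These marker sums differed between the same libraries as every proteasome gene below, and their part in the proteasome values was not tested.

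The proteasome is built from a core particle of stacked alpha and beta rings, whose beta subunits Psmb5, Psmb6 and Psmb7 cut proteins, and a regulatory cap that binds ubiquitin, unfolds the substrate with a ring of ATPases and removes the ubiquitin. The alternative activators PA28 and PA200 open the same core without ubiquitin, and dedicated chaperones assemble its rings. Cells are known to replace lost proteasome activity by transcription through Nfe2l1, and oxidative stress and interferon are known to raise some subunits, through antioxidant response elements (ARE) and interferon regulatory factor (IRF) sites. In microglia, inflammatory stimuli are known to bring in the immunoproteasome.

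The start regions of the members were read from RefSeq promoters on GRCm38.p6, which held an entry for 37 of the 45 members, from 250 bases before to 50 bases after the start site. Both strands were searched for the ARE core TGACNNNGC (GCNNNGTCA on the other strand) and for the IRF core GAAANNGAA (TTCNNTTTC). These 37 members had 40 such windows, as 3 of them had more than 1, and a gene was counted where any of its windows held the motif. The ARE core was present for 6 of 37 members, 16.2% (6.19 to 32.0), beside 14.0% of all 27025 genes of the table. The IRF core was present for 7 of 37, 18.9% (7.96 to 35.2), beside 9.76% of all genes of the table. Psmd9 was in both counts. The following excerpts are shown because they belong to 2 of the 3 catalytic subunits, to members with ratios at either end of the range described below, and to a beta subunit with an IRF core. Capitals mark the motif.

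Psmb5, chr14:54617993-54618072, minus strand: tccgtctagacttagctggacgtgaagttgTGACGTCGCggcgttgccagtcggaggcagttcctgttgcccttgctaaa
Psmb6, chr11:70525287-70525366, plus strand: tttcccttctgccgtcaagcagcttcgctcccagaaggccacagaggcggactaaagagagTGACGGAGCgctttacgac
Psmb3, chr11:97703242-97703321, plus strand: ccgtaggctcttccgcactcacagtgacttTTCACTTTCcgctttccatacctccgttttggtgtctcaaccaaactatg
Psmd12, chr11:107479278-107479330, plus strand: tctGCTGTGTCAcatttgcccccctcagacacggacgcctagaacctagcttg
Psme4, chr11:30771705-30771784, plus strand: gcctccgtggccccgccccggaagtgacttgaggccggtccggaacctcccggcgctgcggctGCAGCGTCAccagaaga

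The ARE core began 47 bases before the start site in Psmb5, 9 bases before it in Psmb6, 247 bases before it in Psmd12 and 7 bases before it in Psme4. The IRF core of Psmb3 began 162 bases before its start site. The ARE core was also present for Psmc6 and Psmd9, and a match is a description of these letters and not of a bound site.

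Transcripts of the proteasome were less abundant in the KO LPS library. The 45 members together held 1551 of the KO LPS UMIs, 4068 CPM (3868 to 4275), and 13588 of the WT LPS UMIs, 6832 CPM (6717 to 6947). The KO LPS level was 0.595 times that of WT LPS (0.565 to 0.628). A member was counted as lower or higher where its level differed by at least 1.5-fold with 0.5 UMIs added to each count. As KO LPS has fewer UMIs in all, this added count shifts genes with few UMIs toward higher in KO LPS. Of the 45 members, 32 were lower in KO LPS, against 25.8% of all 9085 genes, 2 were higher, against 26.2% of all genes, and 11 lay within 1.5-fold. Of the 34 past 1.5-fold, 13 stayed so under each of 11 alternatives of cells or scaling, 8 did not only in the cells with a Y-linked UMI and no Xist, and 13 did not under at least 1 other. KO LPS had 12 cells with a Y-linked UMI and no Xist. There the added count can alone put a gene without KO LPS UMIs above 0. The median member had a log2 ratio of -0.75, and the median over all genes was 0.03. Among the 37 members with at least 100 UMIs, 28 were lower and 1 was higher, against 27.5% and 20.4% of the 4469 genes with that many UMIs, at medians of -0.75 and -0.07.

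**Figure D1:**
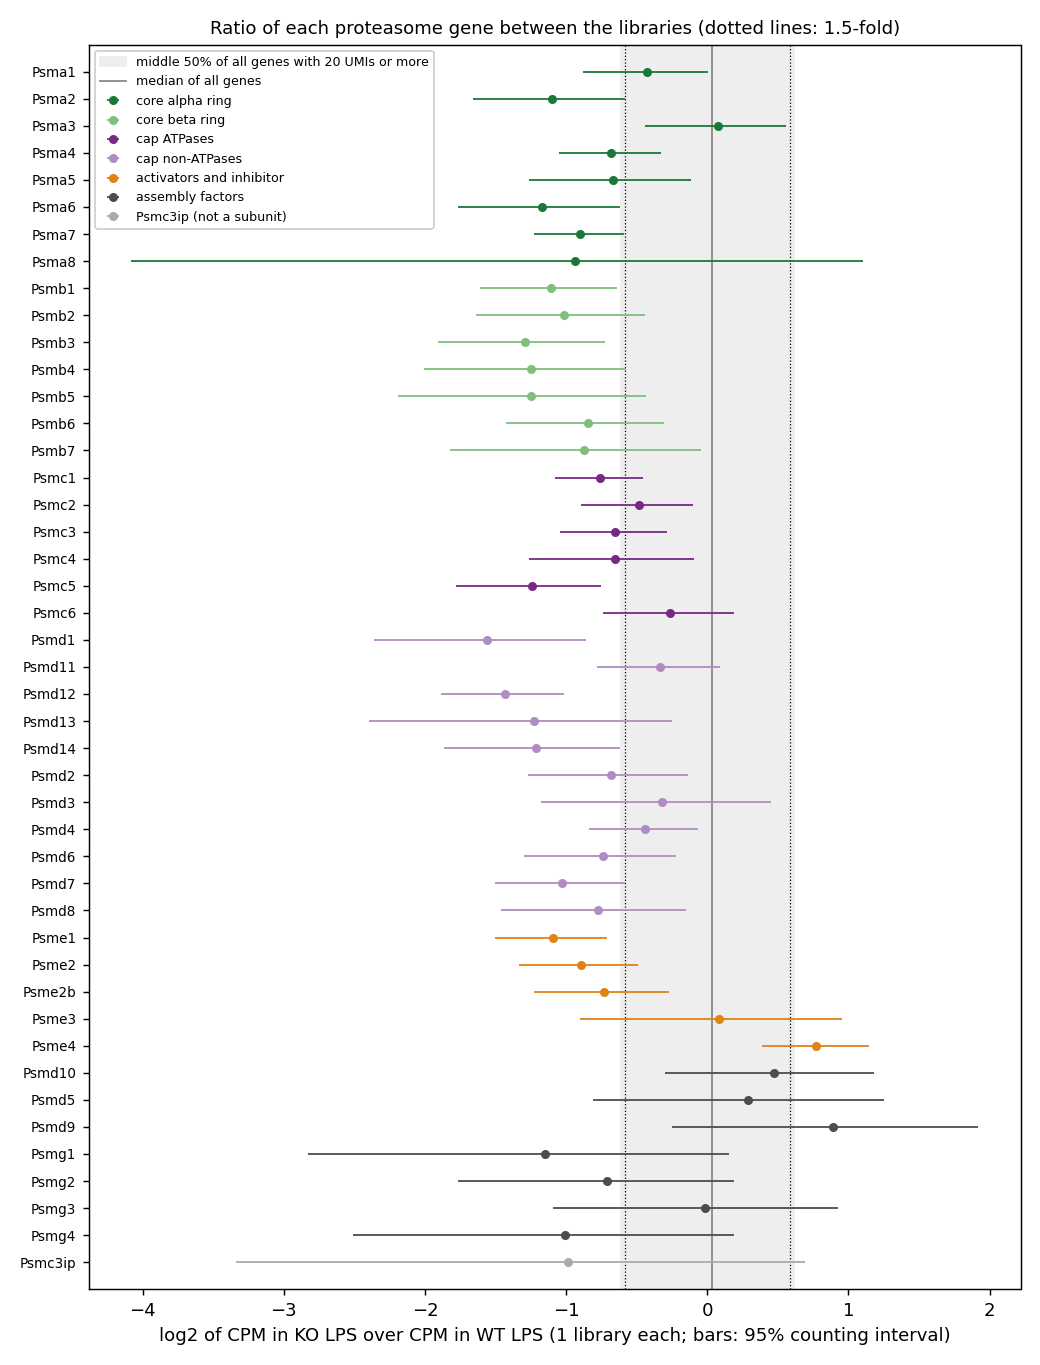
Ratio of KO LPS over WT LPS for each of the 45 members on a log2 scale (horizontal axis), without an added count, coloured by role, with the 95% exact counting interval as bars. The grey band holds the middle 50% of all 9085 genes and dotted lines mark 1.5-fold: the 7 beta ring genes all lie left of the line at 1.5-fold lower, and Psme4 and Psmd9 lie right of the line at 1.5-fold higher.

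This shift was shared with other large housekeeping complexes and cannot be called particular to the proteasome. Of all genes, 25.8% were lower. The 76 cytosolic ribosomal protein genes had a median log2 ratio of -1.0 with 60 of them lower, the 69 nuclear-encoded oxidative phosphorylation subunits a median of -0.83 with 49 lower, and the 8 genes of the Cct chaperonin, which folds actin and tubulin, a median of -0.92 with 7 lower. Their summed levels in KO LPS were 0.511, 0.564 and 0.507 times those in WT LPS, beside 0.595 for the proteasome members.

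**Figure D2:**
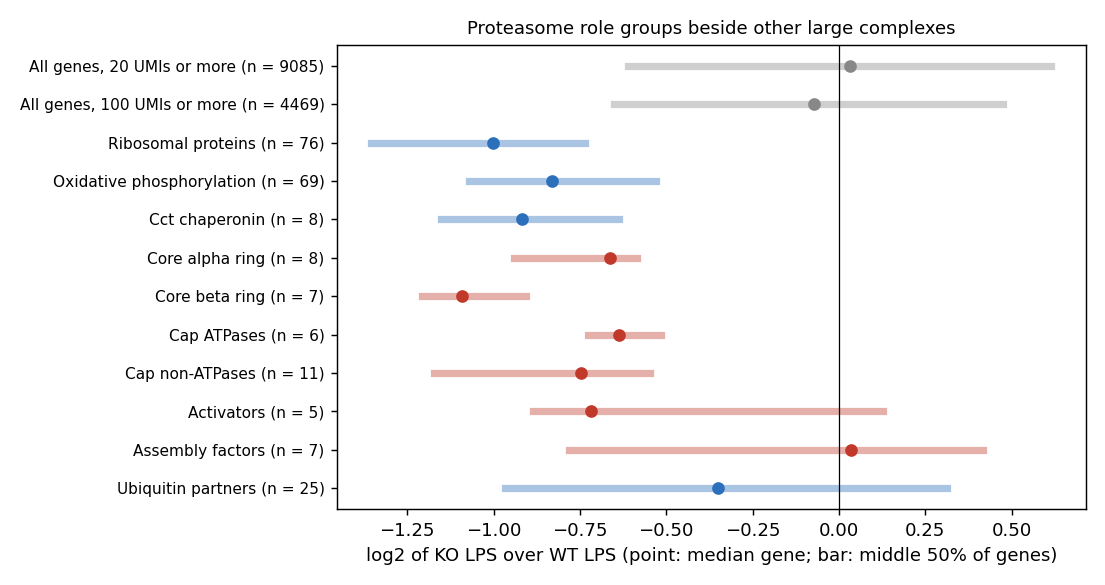
Median log2 ratio between the libraries, KO LPS over WT LPS (points), with the middle 50% of genes (bars) for the proteasome role groups in red, other complexes and the ubiquitin partners in blue, and all genes in grey. The beta ring sits at -1.09, close to the ribosomal proteins at -1.0, and the assembly factors sit at 0.04, beside 0.03 for all genes.

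The core particle was lower in KO LPS, with the lower summed ratio in its beta ring. The 15 core genes summed to 1366 CPM in KO LPS (1252 to 1489) against 2479 in WT LPS (2410 to 2549), or a ratio of 0.551 (0.503 to 0.603). Of these, 13 were lower and none was higher, beside 25.8% and 26.2% of all genes. The 8 alpha ring genes, whose subunits form the gate of the barrel, had a summed ratio of 0.602 (0.537 to 0.672). The 7 beta ring genes had a summed ratio of 0.469 (0.399 to 0.550), all 7 were lower, and their log2 ratios ranged from -1.26 to -0.82. Psmb6 was not past 1.5-fold by the mean of single-cell CPM (-0.42) or in thinned cells (-0.41), nor was Psmb7 in the cells with Xist and no Y-linked UMI (-0.44), and in the cells with a Y-linked UMI and no Xist Psmb1, Psmb2, Psmb4 and Psmb6 were not, from -0.45 to 0.23.

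Of the catalytic subunits, Psmb5, the chymotrypsin-like beta5 subunit, had 13 UMIs (34.1 CPM) in KO LPS against 161 (80.9 CPM) in WT LPS, 0.421 times the level (0.219 to 0.741). Psmb6, the caspase-like beta1 subunit, had 31 UMIs (81.3 CPM) in KO LPS against 290 (146 CPM) in WT LPS, 0.558 times the level (0.372 to 0.809). Psmb7, the trypsin-like beta2 subunit, had 13 UMIs (34.1 CPM) in KO LPS against 124 (62.3 CPM) in WT LPS, 0.547 times the level (0.283 to 0.970). Together these subunits were at 149 CPM in KO LPS against 289 in WT LPS, and all 3 ratios had intervals below 1. The non-catalytic beta subunits complete the same ring. The lowest ratio of the ring was that of Psmb3, the beta3 subunit, with 27 UMIs (70.8 CPM) in KO LPS against 344 (173 CPM) in WT LPS, 0.409 times the level (0.266 to 0.606). Psmb4, the beta7 subunit, had 19 UMIs (49.8 CPM) in KO LPS against 236 (119 CPM) in WT LPS, 0.420 times the level (0.248 to 0.671). Psmb1, the beta6 subunit, had 40 UMIs (105 CPM) in KO LPS against 450 (226 CPM) in WT LPS, 0.464 times the level (0.327 to 0.641). Psmb2, the beta4 subunit, had 27 UMIs (70.8 CPM) in KO LPS against 284 (143 CPM) in WT LPS, 0.496 times the level (0.321 to 0.737). The ring was therefore low throughout in KO LPS, at levels from 34.1 to 105 CPM, beside 62.3 to 226 in WT LPS.

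In the alpha ring, Psma7, the alpha4 subunit and the core gene with most UMIs, had 92 UMIs (241 CPM) in KO LPS against 896 (450 CPM) in WT LPS, 0.536 times the level (0.427 to 0.664). Psma6, the alpha1 subunit, had the lowest ratio of the ring, with 29 UMIs (76.1 CPM) in KO LPS against 340 (171 CPM) in WT LPS, 0.445 times the level (0.293 to 0.651). Psma2, the alpha2 subunit, had 33 UMIs (86.5 CPM) in KO LPS against 369 (186 CPM) in WT LPS, 0.467 times the level (0.316 to 0.667). All 3 had intervals below 1, as had the next 2, with smaller differences, although Psma7 was at a log2 ratio of 0.24 in the cells with a Y-linked UMI and no Xist. Psma4, the alpha3 subunit, had 73 UMIs (191 CPM) in KO LPS against 611 (307 CPM) in WT LPS, 0.623 times the level (0.482 to 0.795). Psma5, the alpha5 subunit, had 30 UMIs (78.7 CPM) in KO LPS against 248 (125 CPM) in WT LPS, 0.631 times the level (0.417 to 0.924). Psma8, the testis form of alpha4, was counted as lower with 2 UMIs (5.25 CPM) in KO LPS against 20 (10.1 CPM) in WT LPS, 0.522 times the level (0.0591 to 2.15), an interval that reached above 1. Psma5 was no longer past 1.5-fold under 3 alternatives, with log2 ratios from -0.57 to -0.23, and Psma8 under 6, from -0.54 to 2.09. Psma1, the alpha6 subunit, lay within 1.5-fold at 131 and 176 CPM. Psma3, the alpha7 subunit, had the highest ratio of the core, with 42 UMIs (110 CPM) in KO LPS against 208 (105 CPM) in WT LPS, 1.05 times the level (0.737 to 1.47), and its log2 ratio of 0.09 was below 0 under 4 alternatives, down to -1.65 in the cells with a Y-linked UMI and no Xist. The subunits of the ring are present in equal numbers in the particle, yet the interval of Psma3 did not overlap those of Psma2, Psma6 and Psma7.

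**Figure D3:**
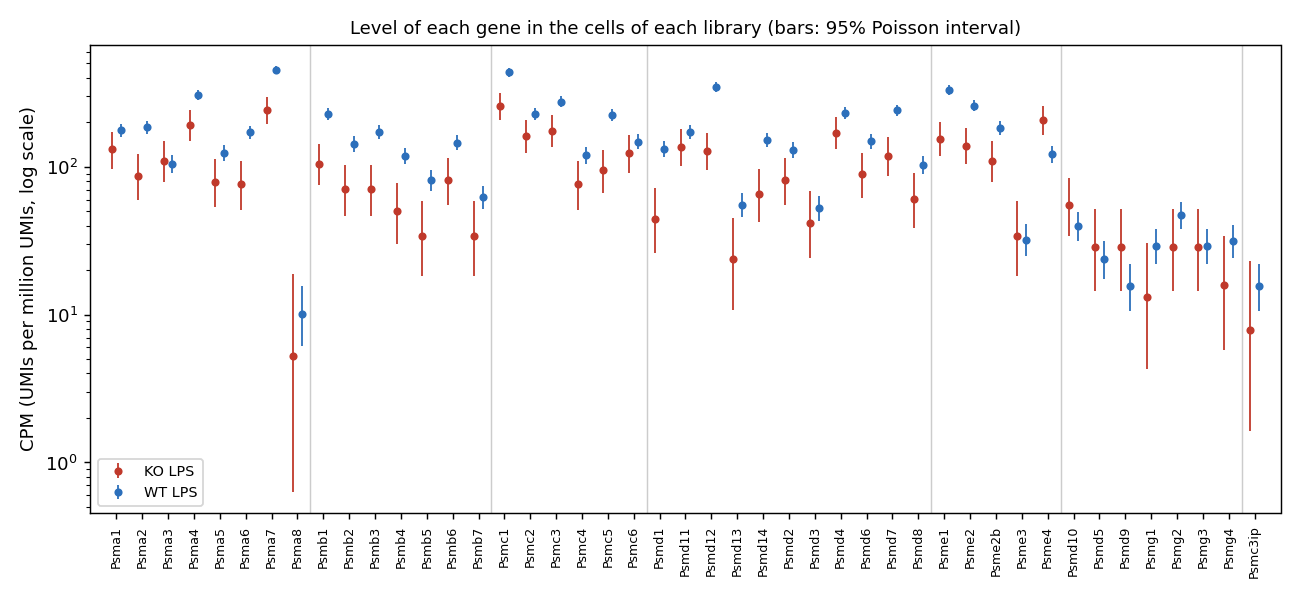
Level of each member in the cells of KO LPS (red) and WT LPS (blue), in CPM on a log scale, with 95% Poisson intervals; vertical lines part the role groups. In the 7 beta ring genes the red interval lies wholly below the blue point, whereas Psme4 has its red point at 207 above the blue point at 121.

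The regulatory cap was lower in KO LPS too. Its 17 genes summed to 1849 CPM in KO LPS (1715 to 1991) against 3195 in WT LPS (3117 to 3275), or a ratio of 0.579 (0.535 to 0.626). Of these, 12 were lower, none was higher, and all 17 had a log2 ratio below 0, beside 25.8%, 26.2% and 48.7% of all genes. The 6 ATPases of the base had a summed ratio of 0.622 (0.554 to 0.696), and the 11 non-ATPase subunits one of 0.544 (0.487 to 0.606).

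Among the ATPases, which thread the unfolded substrate into the core, Psmc5 (Rpt6) had the lowest ratio, with 36 UMIs (94.4 CPM) in KO LPS against 445 (224 CPM) in WT LPS, 0.422 times the level (0.292 to 0.593). Psmc1 (Rpt2) had 98 UMIs (257 CPM) in KO LPS against 866 (435 CPM) in WT LPS, 0.590 times the level (0.474 to 0.728). Psmc3 (Rpt5) had 67 UMIs (176 CPM) in KO LPS against 549 (276 CPM) in WT LPS, 0.637 times the level (0.486 to 0.822). Psmc4 (Rpt3) had 29 UMIs (76.1 CPM) in KO LPS against 238 (120 CPM) in WT LPS, 0.636 times the level (0.417 to 0.937). These 4 passed 1.5-fold, and Psmc2 (Rpt1) and Psmc6 (Rpt4) did not. Psmc4 no longer passed under 4 alternatives, with log2 ratios from -0.46 to -0.28, nor did Psmc3 with at least 300 UMIs per cell (-0.55), and in the cells with a Y-linked UMI and no Xist Psmc3 (-0.41) and Psmc1 (0.10) did not. Psmc2 was at 163 and 228 CPM in KO LPS and WT LPS. Psmc6 had the highest ratio of the ring, with 47 UMIs (123 CPM) in KO LPS against 294 (148 CPM) in WT LPS, 0.834 times the level (0.599 to 1.14).

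The 2 lowest ratios of the whole proteasome were those of non-ATPase subunits. Psmd1 (Rpn2), a large scaffold of the base, had 17 UMIs (44.6 CPM) in KO LPS against 262 (132 CPM) in WT LPS, 0.338 times the level (0.194 to 0.552). Psmd12 (Rpn5), a scaffold of the lid, had 49 UMIs (129 CPM) in KO LPS against 691 (347 CPM) in WT LPS, 0.370 times the level (0.271 to 0.495). Both intervals lay wholly below 1, although 20.8% of the 50-base stretches in the 3′ ends of Psmd1 transcripts were shared with other genes. The lid also holds the deubiquitinating enzyme Psmd14 (Rpn11), which had 25 UMIs (65.6 CPM) in KO LPS against 302 (152 CPM) in WT LPS, 0.432 times the level (0.275 to 0.650). Its structural partner Psmd7 (Rpn8) had 45 UMIs (118 CPM) in KO LPS against 478 (240 CPM) in WT LPS, 0.491 times the level (0.353 to 0.667). Psmd13 (Rpn9), a further lid subunit, had 9 UMIs (23.6 CPM) in KO LPS against 110 (55.3 CPM) in WT LPS, 0.427 times the level (0.190 to 0.840). The intervals of the enzyme and of its partner lay below 1. Psmd8 (Rpn12), another lid subunit, had 23 UMIs (60.3 CPM) in KO LPS against 205 (103 CPM) in WT LPS, 0.585 times the level (0.363 to 0.903). Psmd6 (Rpn7), also of the lid, had 34 UMIs (89.2 CPM) in KO LPS against 296 (149 CPM) in WT LPS, 0.599 times the level (0.407 to 0.856). Psmd2 (Rpn1), the other large scaffold of the base, had 31 UMIs (81.3 CPM) in KO LPS against 259 (130 CPM) in WT LPS, 0.624 times the level (0.416 to 0.908). These 8 were past 1.5-fold, and 3 were not: Psmd4 (Rpn10), a ubiquitin receptor of the cap, was at 170.5 and 232 CPM, Psmd11 (Rpn6), which ties the lid to the core, at 136 and 172, and Psmd3 (Rpn3). Psmd3 had the highest ratio of these 11, with 16 UMIs (42.0 CPM) in KO LPS against 104 (52.3 CPM) in WT LPS, 0.803 times the level (0.442 to 1.37). Psmd14 was no longer past 1.5-fold in thinned cells, at -0.53 on the log2 scale, and in the cells with a Y-linked UMI and no Xist Psmd12 (-0.39), Psmd6 (0.53) and Psmd8 (1.01) were not.

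The activators were split between both directions. The 5 genes summed to 645 CPM in KO LPS (567 to 731) against 926 in WT LPS (884 to 969), or a ratio of 0.697 (0.608 to 0.797), with 3 lower and 1 higher, beside 25.8% and 26.2% of all genes. Psme1 and Psme2 encode the alpha and beta subunits of PA28, an activator known to be induced by interferon gamma. Psme1 had 59 UMIs (155 CPM) in KO LPS against 657 (330 CPM) in WT LPS, 0.468 times the level (0.353 to 0.612). Psme2 had 53 UMIs (139 CPM) in KO LPS against 515 (259 CPM) in WT LPS, 0.537 times the level (0.397 to 0.713). Psme2b, a near-copy of Psme2, had 42 UMIs (110 CPM) in KO LPS against 364 (183 CPM) in WT LPS, 0.602 times the level (0.426 to 0.830). By the mean of single-cell CPM Psme2b was not past 1.5-fold, at -0.58 on the log2 scale. Of the 50-base stretches within the 3′ ends of their transcripts, 46.6% in Psme2 and 56.5% in Psme2b were shared with another gene, most often with each other, so the split of reads between them is uncertain, and their sum had a ratio of 0.564 (0.451 to 0.697). Psme3, the nuclear PA28 gamma, had 13 UMIs (34.1 CPM) in KO LPS against 64 (32.2 CPM) in WT LPS, 1.06 times the level (0.535 to 1.94), so that its counts allowed a difference of either sign.

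Psme4, which encodes PA200, a large nuclear activator known for the degradation of acetylated histones, went the other way. Its transcript is among the longest, at 6579 bases, and of the 2009 genes in this length class 39.6% were at least 1.5-fold higher in KO LPS, against 26.2% of all genes. It had 79 UMIs (207 CPM) in KO LPS against 241 (121 CPM) in WT LPS, 1.71 times the level (1.31 to 2.21), and it was the only one of the 45 members with an interval above 1. It was detected in 55 of 320 and 196 of 1427 cells. Per Psme1 UMI there were 1.34 Psme4 UMIs in KO LPS (0.944 to 1.91) against 0.367 in WT LPS (0.315 to 0.426). In barcodes with at most 100 UMIs, taken as empty droplets, Psme4 was at 181 CPM in KO LPS (127 to 251) against 187 in WT LPS (142 to 241). The WT LPS cells thus lay below their own empty droplets, at 0.648 times their level (0.486 to 0.877), and the KO LPS cells were not distinguishable from theirs, at 1.14 times (0.762 to 1.75). Between the libraries the Psme4 intervals of the empty droplets overlapped and those of the cells did not. The part of free RNA in the Psme4 ratio was not tested. In the cells with a Y-linked UMI and no Xist, 12 of KO LPS and 195 of WT LPS, the log2 ratio of Psme4 was -0.27. The median of all genes was 0.71 there, a value raised by the 0.5 UMIs added to low KO LPS counts. With so few KO LPS cells no reversal is read from this split. In the 200 and 565 cells with Xist and no Y-linked UMI the log2 ratio of Psme4 was 0.97. It was no longer past 1.5-fold without the 5% of cells with most UMIs, at 0.56, or with every barcode of 100 genes, at 0.58.

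The assembly factors were not distinguishable between the libraries as a group. The 7 genes summed to 199 CPM in KO LPS (157 to 250) against 216 in WT LPS (196 to 238), or a ratio of 0.922 (0.713 to 1.18), with 3 lower, 1 higher and a median log2 ratio of 0.04. Beside 25.8% lower and 26.2% higher among all genes, counts over 7 genes do not set them apart, and they rested on 76 UMIs in KO LPS. Under the alternatives their summed ratio lay between 0.833 and 1.64. Their share of the members' UMIs was 4.90% in KO LPS (3.88 to 6.09) against 3.16% in WT LPS (2.88 to 3.47), while the core held 33.6% and 36.3%, the cap 45.5% and 46.8%, and the activators 15.9% and 13.5%.

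Within the assembly factors the chaperones of the 2 subassemblies had ratios on opposite sides of 1. Psmg1 to Psmg4 encode PAC1 to PAC4, which pair up to build the alpha ring, and had a summed ratio of 0.631 (0.425 to 0.907). Psmg1 had 5 UMIs (13.1 CPM) in KO LPS against 58 (29.2 CPM) in WT LPS, 0.450 times the level (0.141 to 1.11). Psmg4 had 6 UMIs (15.7 CPM) in KO LPS against 63 (31.7 CPM) in WT LPS, 0.497 times the level (0.176 to 1.14). Psmg2 had 11 UMIs (28.8 CPM) in KO LPS against 94 (47.3 CPM) in WT LPS, 0.610 times the level (0.295 to 1.14). Each of these 3 passed 1.5-fold with an interval that reached above 1, and Psmg3 was at 28.9 and 29.2 CPM. None of the 3 stayed past 1.5-fold under every alternative. In the cells with a Y-linked UMI and no Xist their log2 ratios were 1.35 for Psmg1, -0.23 for Psmg2 and 0.32 for Psmg4, and in thinned cells Psmg4 was at 0.21. The added 0.5 UMIs raise these values where KO LPS has few UMIs. Psmd5, Psmd9 and Psmd10, known as S5b, p27 and gankyrin, hold the ATPases of the base until the ring is closed, and had a summed ratio of 1.43 (0.995 to 2.01). Psmd9 had the highest ratio of all members, with 11 UMIs (28.8 CPM) in KO LPS against 31 (15.6 CPM) in WT LPS, 1.85 times the level (0.839 to 3.78). Psmd10 had 21 UMIs (55.1 CPM) in KO LPS against 79 (39.7 CPM) in WT LPS, 1.39 times the level (0.814 to 2.27). Psmd5 had 11 UMIs (28.8 CPM) in KO LPS against 47 (23.6 CPM) in WT LPS, 1.22 times the level (0.571 to 2.39). The difference between the 2 kinds of chaperone was not tested. Psmc3ip, the Hop2 gene, was counted as lower with 3 UMIs (7.87 CPM) in KO LPS against 31 (15.6 CPM) in WT LPS, 0.505 times the level (0.0988 to 1.62).

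Between members, the order of levels was kept across the libraries, with a Spearman rho of 0.89 over the 45 genes, which share the 2 libraries and their depths. UMIs count captured 3′ ends, so these are levels in CPM that were not divided by length, and capture can differ between genes. The core subunits other than Psma8 spanned 7.08-fold from lowest to highest in KO LPS and 7.23-fold in WT LPS, and the 17 cap genes 10.9-fold and 8.33-fold. Psmc1 was the member with most UMIs in KO LPS, at 257 CPM, and Psma7 in WT LPS, at 450.5 CPM.

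The immunoproteasome subunits Psmb8, Psmb9 and Psmb10, which take the places of Psmb5, Psmb6 and Psmb7 in inflamed cells, summed to 286 CPM in KO LPS against 393 in WT LPS, or a ratio of 0.728 (0.590 to 0.891). For each UMI of the 3 constitutive catalytic subunits there were 1.91 immunoproteasome UMIs in KO LPS (1.38 to 2.68) against 1.36 in WT LPS (1.22 to 1.52), and Psmb8 was at 163 and 192 CPM, Psmb9 at 36.7 and 59.3, and Psmb10 at 86.5 and 141.

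The partners of the proteasome, a list of 26 ubiquitin and shuttle genes of which 25 were measured, were divided. Of the 25, 11 were lower in KO LPS, 3 were higher and 11 lay within 1.5-fold, against 25.8% and 26.2% of all genes, with a median log2 ratio of -0.35 and a summed ratio of 0.839 (0.789 to 0.893). The lower ones held further proteins of the cap: Adrm1 (Rpn13), a ubiquitin receptor as Psmd4 is, with 14 and 162 UMIs, had a ratio of 0.451 (0.241 to 0.779), and Uchl5, a deubiquitinase that docks on it, had 19 and 259 UMIs and a ratio of 0.383 (0.227 to 0.610). Sem1 (listed as Shfm1), a small lid subunit, had 30 and 358 UMIs and a ratio of 0.437 (0.291 to 0.635). Txnl1, a thioredoxin of the cap, had 18 and 174 UMIs and a ratio of 0.540 (0.312 to 0.878).

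Upstream of the particle, Vcp, the segregase that extracts ubiquitinated proteins, had 55 and 523 UMIs and a ratio of 0.549 (0.408 to 0.725). Its cofactor Ufd1 (listed as Ufd1l) had a ratio of 0.416 (0.203 to 0.767) on 11 and 138 UMIs. Rad23b, a shuttle for ubiquitinated proteins, had a ratio of 0.590 (0.377 to 0.886) on 26 and 230 UMIs. Nfe2l1, the transcription factor of the proteasome genes, had 61 and 564 UMIs and a ratio of 0.564 (0.426 to 0.736). Ngly1, the enzyme that removes its sugars, had 5 and 57 UMIs and a ratio of 0.458 (0.143 to 1.13). Rps27a, a ubiquitin gene fused to a ribosomal protein, had 12 and 127 UMIs and a ratio of 0.493 (0.248 to 0.891).

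The 3 partners that were higher in KO LPS were Akirin2, which brings proteasomes into the nucleus, Ube3c, a ubiquitin ligase that acts at the proteasome, and Ubqln2, a shuttle. Akirin2 had 92 UMIs (241 CPM) in KO LPS against 209 (105 CPM) in WT LPS, or a ratio of 2.30 (1.78 to 2.95). Ube3c had 24 and 54 UMIs and a ratio of 2.32 (1.37 to 3.81). Ubqln2 had 15 and 21 UMIs and a ratio of 3.73 (1.79 to 7.58).

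Within WT LPS, the level of the proteasome differed with the number of inflammatory UMIs in the cell. Each cell was thinned to 500 UMIs and placed by its number of UMIs from the inflammatory list, which are ranges of a count and not cell types, and 402 and 230 of the 1427 cells lay next to the 2 borders. The members were at 5712 CPM in the 459 cells with 0 to 2 such UMIs, 6692 in the 491 cells with 3 to 5 and 7199 in the 477 cells with 6 or more. The highest class was 1.26 times the lowest (1.17 to 1.36) for all members, 1.38 (1.22 to 1.55) for the core, 1.22 (1.10 to 1.36) for the cap, 1.13 (0.933 to 1.38) for the activators and 1.14 (0.725 to 1.79) for the assembly factors. Of the 37 members with at least 20 UMIs over both classes, 11 were at least 1.5-fold higher in the highest class, against 14.2% of 4403 genes, and 0 were at least 1.5-fold lower, against 17.0%. Their median log2 ratio was 0.35, beside 0.00 for all genes. These are cells of 1 library and not replicates, and their unthinned depth moved with the class, from a median of 942 over 1064 to 1210 UMIs.

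Psma4 had an interval wholly above 1, with 102 UMIs in the highest class and 53 in the lowest, a ratio of 1.85 (1.32 to 2.63). Psma7 had 130 and 72 UMIs and a ratio of 1.74 (1.29 to 2.35). Psme2, the PA28 beta subunit, had 70 and 41 UMIs and a ratio of 1.64 (1.10 to 2.48). The catalytic subunits had ratios near 1 on few UMIs, 1.02 for Psmb5 (0.505 to 2.05), 1.09 for Psmb6 (0.648 to 1.84) and 0.962 for Psmb7 (0.438 to 2.11). Psme4 had 26 and 37 UMIs and a ratio of 0.676 (0.393 to 1.15), on the other side of 1 from the members as a whole. The same classes gave 1.32 for the ribosomal proteins, 1.37 for oxidative phosphorylation and 1.33 for the Cct chaperonin, so this pattern too was shared.

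**Figure D4:**
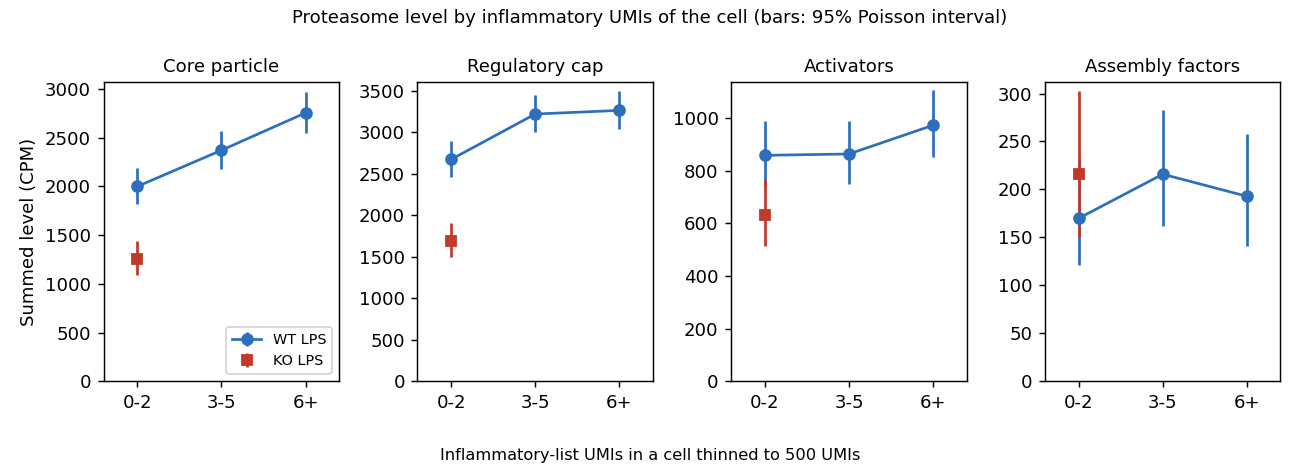
Summed level in CPM (vertical axis, from 0) of each role group in cells thinned to 500 UMIs, by the number of inflammatory UMIs in the cell (horizontal axis), for WT LPS (blue) and for the KO LPS cells with 0 to 2 (red), with 95% Poisson intervals. The KO LPS core at 1255 lies below the WT LPS core at 2000 in the same class, and the assembly factors at 217 and 170 have overlapping intervals.

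Nearly all KO LPS cells, 314 of 320, fell in the class with 0 to 2 inflammatory UMIs. In that class the members were at 3803 CPM in KO LPS against 5712 in WT LPS, or a ratio of 0.666 (0.603 to 0.734), beside 0.595 over all cells unthinned. The ratio was 0.627 (0.528 to 0.743) for the core, 0.633 (0.546 to 0.732) for the cap, 0.735 (0.571 to 0.940) for the activators and 1.27 (0.780 to 2.07) for the assembly factors. By depth, the members were at 3658, 4228 and 4343 CPM in KO LPS cells with under 1000, from 1000 to under 2000 and 2000 or more UMIs, and at 6133, 6935 and 7168 in WT LPS cells of these depths, so the KO LPS level was lower at each depth.

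Single cells held few proteasome transcripts. In cells thinned to 500 UMIs, a mean of 1.89 member UMIs per cell was counted in KO LPS against 3.27 in WT LPS, and 83.4% (78.9 to 87.3) and 93.4% (92.0 to 94.6) of cells held at least 1, beside 91.9% and 97.9% before thinning. The composition of the empty droplets alone would give 79.8% and 89.1% at this depth. The variance of the count over its mean was 1.10 in KO LPS against 1.33 in WT LPS, where 1 is the value of counting noise.

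Much of this signal was present outside the cells too. In barcodes with at most 100 UMIs the members were at 3190 CPM in KO LPS (2947 to 3449) against 4415 in WT LPS (4186 to 4653), or a ratio of 0.723 (0.657 to 0.794), so that the free RNA differed between the libraries in the same direction as the cells. The cells were at 1.28 times the level of the free RNA (1.16 to 1.40) in KO LPS and at 1.55 times (1.46 to 1.64) in WT LPS. Of the 45 members, 9 in KO LPS were above the empty droplets of their library beyond counting error, against 5.92% of all 9085 genes, and 1, Psma8, was below, against 2.41%. In WT LPS 25 were above, against 19.4% of all genes, and 1, Psme4, was below, against 7.47%. The member UMIs behind these intervals were 1551 in the cells of KO LPS but 13588 in those of WT LPS, so the 2 counts are not comparable. The microglia markers were at 1.13 times the level of free RNA in KO LPS and 1.83 times in WT LPS, so cells and free RNA lay closer together in KO LPS for these as well. Psmb3 was at 173 CPM in WT LPS cells and 41.2 in their empty droplets, a ratio of 4.20 (2.42 to 7.97), whereas in KO LPS it was at 70.8 and 70.5. Psmb5 was at 80.9 and 28.5 in WT LPS and at 34.1 and 35.2 in KO LPS. For Psmb3 and Psmb5 the cells of KO LPS were not distinguishable from free RNA, on 14 and 7 UMIs in the empty droplets. Psmb1 lay above it in KO LPS, at 2.32 times (1.11 to 5.43). Psmb2, Psmb4, Psmb6 and Psmb7 were at 2.35, 1.65, 1.62 and 1.13 times in KO LPS, with intervals that reached below 1.

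**Figure D5:**
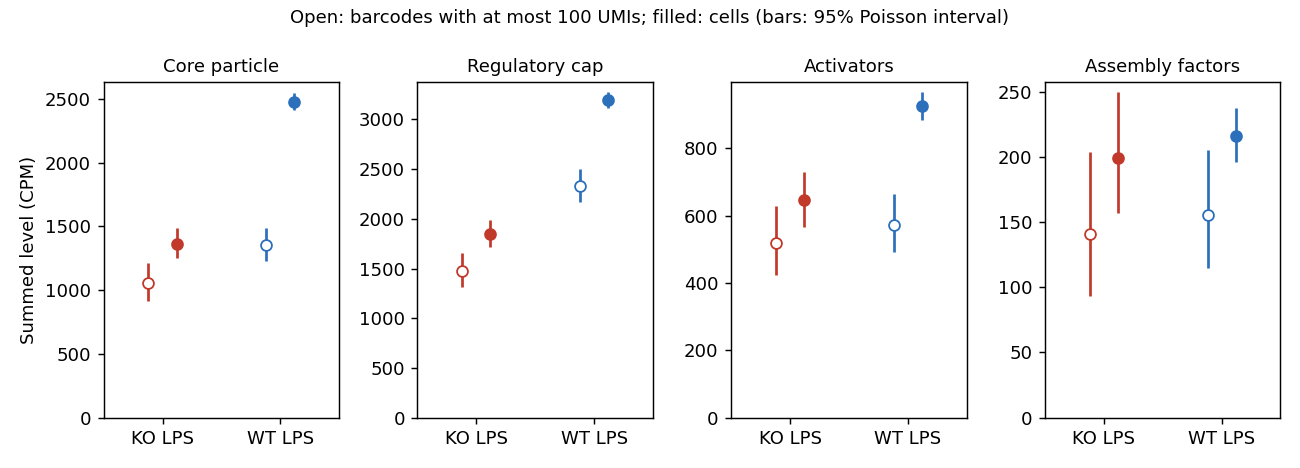
Summed level in CPM (vertical axis, from 0) in barcodes with at most 100 UMIs (open points) and in cells (filled points) of each library, by role group, with 95% Poisson intervals. The core is at 1352 in empty droplets and 2479 in cells in WT LPS, and at 1057 and 1366 in KO LPS.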

How the data were processed

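The authors deposited 1 matrix of raw UMI counts per library (genes by 9999 barcodes), with bcl2fastq 2.0, STAR and the builds mm9 and mm10 named, without roles, in the submitters' processing notes. The strand setting of the counting is not given in the sources used here. No normalization had been applied. KO LPS listed 13921 and WT LPS 16501 of 19537 genes, and a gene without a value was read as 0, which concerned 0 members. There were 0 columns of other samples.

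Barcodes with at least 500 UMIs and 100 genes were kept as cells (55.7% and 64.9% of the UMIs). The matrices hold 676 and 3618 barcodes with at least 100 genes. The study's stated filter, 100 genes after a call of empty droplets, was not recovered, since the KO LPS cell number it states is larger than 676. Doublets were not removed, and cells were not clustered. Counts were summed over the cells of a library and divided by their total. With 1 library per genotype and 2 mice pooled in each, no p-value was computed. Ratios carry an exact conditional binomial interval, levels an exact Poisson interval and shares a Clopper-Pearson interval, at 95%. Log2 ratios had a prior count of 0.5, added to counts of libraries of unequal size. It shifts genes with few UMIs toward higher in KO LPS, the smaller library. A call was a 1.5-fold difference among genes with at least 20 UMIs. The interval functions were tested on simulated data. Every member is accounted for, and full values were given for the catalytic subunits, members past 1.5-fold, the ends of each role group, Psme1 to Psme4 and partners past 1.5-fold, of which 1 is not reported here. For levels by inflammatory UMIs, cells were thinned without replacement to 500 UMIs. Promoters came from RefSeq (GRCm38.p6) and transcript lengths and shared 50-base stretches from GENCODE transcripts on GRCm39. Python 3.11.15, numpy 2.4.6, scipy 1.17.1 and pandas 2.3.3 were used. The members and the gene lists were chosen with earlier results of these data known.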

Additional observations from a re-analysis of the deposited data

How the results depend on the processing

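No paired analysis was possible because each genotype had 1 library. The summed ratios of the core, cap and activators stayed below 1 under each of the 12 alternatives, among them other cell minimums, 2 other scalings, thinning, subtraction of free RNA and leaving out the 3 cells with most UMIs of the group. Most values kept within their interval, and those that left it came chiefly from the cells with a Y-linked UMI and no Xist, of which KO LPS had 12 and WT LPS 195. In those cells the ratio was 0.628 for the core, 0.312 for the activators and 1.64 for the assembly factors, the median log2 ratio of members was -0.39 beside 0.71 for all genes, 19 members were lower beside 16.7% of all genes, and 10 were higher beside 53.1%. With 12 KO LPS cells, the 0.5 UMIs added to each count can alone put a gene without a KO LPS UMI past 1.5-fold higher. The counts and shares higher and the positive log2 ratios in these cells therefore do not show a higher level. In the 200 and 565 cells with Xist and no Y-linked UMI the cap ratio was 0.521. With every barcode of 100 genes the median was -0.63 and 1 member was higher, and 1 was higher without the 5% of cells with most UMIs and with 50 UMIs per gene, beside 26.5%, 26.85% and 22.6% of all genes. With no minimum per gene, 47 genes were counted and 3 were higher, beside 43.6% of all genes. Among these 3 was Psmb11, which KO LPS lacked and WT LPS held once. Its log2 ratio of 0.798 came from the added 0.5 UMIs alone and does not show a higher level. The added count can raise the share of all genes in the same way. At 2-fold, 14 members were lower and 0 higher, beside 15.3% and 13.5% of all genes. Among members past 1.5-fold, the log2 ratio changed sign in the cells with a Y-linked UMI for Psma7 (0.24), Psma8 (2.09), Psmb6 (0.23), Psmc1 (0.10), Psmc3ip (0.95), Psmd6 (0.53), Psmd8 (1.01), Psme4 (-0.27), Psmg1 (1.35) and Psmg4 (0.32), and on thinning for Psma8 (0.041) and Psmg4 (0.21) (the cause was not tested). Among members within 1.5-fold it changed sign in the cells with a Y-linked UMI for Psma1 (0.71), Psma3 (-1.65) and Psmc6 (0.39), on thinning for Psma3 (-0.019) and Psme3 (-0.40), and under at least 1 further alternative for Psma3, Psmd3, Psmd5, Psme3 and Psmg3. Members past 1.5-fold that lost this outside the cells with a Y-linked UMI were Psma5, Psma8, Psmb6, Psmb7, Psmc3, Psmc3ip, Psmc4, Psmd14, Psme2b, Psme4, Psmg1, Psmg2 and Psmg4, and inside them alone Psma7, Psmb1, Psmb2, Psmb4, Psmc1, Psmd6, Psmd8 and Psmd12. The assembly factors lay on both sides of 1, from 0.833 to 1.64. Depth limited Psma8, Psmc3ip, Psmd5, Psmd9, Psmd13 and Psmg1 to Psmg4, each with at most 11 UMIs in KO LPS.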

Other observations

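Transcript length was compared with the ratios, since short transcripts were lower in KO LPS across all genes. Of the 9085 genes, 8040 (88.5%) were matched by symbol to a longest transcript, and so were all 45 members. Across the 8040 genes the Spearman rho of length and log2 ratio was 0.30, and across the 45 members, whose points share both libraries and their depth, it was 0.05. The members had a median length of 2438 bases and all genes one of 4100 bases. Among the 2010 genes with the shortest transcripts, up to 2719 bases, the median log2 ratio was -0.35 and 40.2% were at least 1.5-fold lower in KO LPS, and 20 of the 25 members in this range were lower at a median of -0.75. Among the next 2011 genes, up to 4100 bases, 8 of 13 members were lower, beside 26.95% of these genes, and the medians were -0.67 for members and -0.07 for all genes. Among the 2010 genes after these, up to 5795 bases, 3 of 5 members were lower, beside 20.1% of the genes, at medians of -1.08 and 0.11. The 2009 longest genes held 2 members, Psme4, which was higher, and Psmb1, which was lower. Of these 2009 genes 39.6% were at least 1.5-fold higher in KO LPS and 13.5% at least 1.5-fold lower. The medians were -0.16 for the members and 0.41 for all genes of this class. The ratio thus moved with length across all genes, and the part of length in the members' values was not tested.

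Several members share sequence with other genes. Of the 50-base stretches in the 3′ ends of their transcripts, 31.0% in Psma5, 23.5% in Psmb5, 23.1% in Psmd2, 20.8% in Psmd1, 20.5% in Psmb3, 17.99% in Psma4 and 16.2% in Psma3 were shared with other genes, while Psma7, Psmc3, Psmd7 and Psme4 shared 0.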
